A study of Mus musculus with 6 samples.

Results

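KRAB-type zinc-finger genes were described in the livers of 3 acute ethanol-exposed and 3 control mice. Members were the genes whose symbol begins with Zfp and whose KEGG annotation in the deposited table holds the herpes simplex virus 1 infection pathway, in which KEGG places KRAB zinc-finger genes. This rule found 200 of the 28880 genes in the table, and 185 of them had enough counts to be tested. All mice were wild-type male C57BL/6J aged 6 to 8 weeks. Ethanol-exposed mice had fasted for 12 h, received a single oral dose of 6 g/kg as 50% ethanol, and had their livers removed 24 h later. Control mice received no ethanol, and whether they were also fasted or gavaged is not given in the sources used here, so ethanol and these steps cannot be told apart. All 6 libraries carry the same batch label.

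KRAB zinc-finger proteins form one of the largest families of DNA-binding repressors in mammals. An array of C2H2 fingers reads the DNA sequence, and the KRAB box recruits the corepressor Trim28 (KAP1), which brings in the histone methyltransferase Setdb1, heterochromatin proteins of the HP1 family and the NuRD deacetylase complex. Many of their targets are transposable elements, and the genes lie in chromosomal clusters that arose by tandem duplication. The label was checked against the other annotation in the table. Of the 200 members, 199 were listed as C2H2 zinc-finger factors, the exception being Zfp781, and 125 (62.5%) were annotated to the Reactome event "KRAB-ZNF / KAP Interaction". That annotation was held by 33 (15.7%) of the 210 Zfp-named genes that lack the KEGG term and by 64 (0.223%) of all genes in the table that are not members. The presence of a KRAB box in the remaining 75 members was not tested.

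The values in this contrast were known when the KEGG term was taken up, because its genes held many differentially expressed genes (DEGs). Fold changes of the members are therefore a description, without a p-value for any member or for the list. DEGs were genes with a Benjamini-Hochberg adjusted p under 0.05 over all 16717 genes tested by edgeR and a log2 fold change beyond 1. One gene is compared across mice in CPM, its counts relative to the normalized size of each library, and levels of different genes are compared as FPKM, which is also scaled to transcript length.

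A block of 4 members within 120 kb of chromosome 9 held a member that was not detected in ethanol-exposed mice beside the member with the most positive fold change of the family. In the coordinates of the deposited table, Zfp872 spans 22099386 to 22113419, Zfp809 spans 22137010 to 22151391, Zfp599 spans 22158726 to 22171191 and Zfp810 spans 22188044 to 22218944. Promoters are printed for the members of this block with an entry in the RefSeq promoter table (GRCm38.p6, from 250 bases before to 50 after the start, 5′ to 3′ on the gene's strand), because these neighbours lie so close and had opposite differences. Capitals mark matches on either strand to the CCAAT box (CCAAT), the GC box (GGGCGG) and the YY1-type motif (GCCATNTTG). In GRCm38.p6 the Zfp872 promoter lies at chr9:22187916-22188215 (+), that of Zfp809 at chr9:22225453-22225752 (+) and that of Zfp810 at chr9:22307589-22307888 (-). The build of the gene positions above is unknown, so these promoter positions cannot be set against them.
Zfp872: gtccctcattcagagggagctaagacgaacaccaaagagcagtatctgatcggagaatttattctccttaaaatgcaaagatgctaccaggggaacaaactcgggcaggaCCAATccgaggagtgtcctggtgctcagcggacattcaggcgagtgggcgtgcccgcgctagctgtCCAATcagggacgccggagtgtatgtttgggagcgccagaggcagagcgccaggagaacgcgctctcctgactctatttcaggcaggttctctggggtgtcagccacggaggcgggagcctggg
Zfp809: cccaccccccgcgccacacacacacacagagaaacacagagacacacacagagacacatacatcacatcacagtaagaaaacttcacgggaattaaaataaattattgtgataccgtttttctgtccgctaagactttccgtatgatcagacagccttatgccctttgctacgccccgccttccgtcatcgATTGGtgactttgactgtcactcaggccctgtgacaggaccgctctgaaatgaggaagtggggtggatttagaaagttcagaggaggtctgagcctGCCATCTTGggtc
Zfp810: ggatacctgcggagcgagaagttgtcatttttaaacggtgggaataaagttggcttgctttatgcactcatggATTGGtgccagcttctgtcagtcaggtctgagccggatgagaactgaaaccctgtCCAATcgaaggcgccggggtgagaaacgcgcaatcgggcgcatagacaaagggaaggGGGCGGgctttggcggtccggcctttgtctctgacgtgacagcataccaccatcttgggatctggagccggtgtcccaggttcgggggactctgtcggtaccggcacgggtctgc
Zfp872 and Zfp810 each held 2 CCAAT boxes, Zfp809 held 1 together with a YY1-type motif, and the GC box was found in the Zfp810 window alone.

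Zfp872 had 75, 50 and 52 counts in the 3 control mice and 0 counts in every ethanol-exposed mouse. With 3 counts per library as the limit of detection, this is at least 13.4-fold lower in ethanol-exposed mice. Reads cannot be assigned to a strand from the sources used here, and Zfp872 overlaps 1810064F22Rik, a gene on the other strand with 196 to 305 counts in control and 0 to 12 in ethanol-exposed mice. Zfp809, which silences murine leukemia viruses through their primer binding site, had 8.74, 8.14 and 7.64 CPM in ethanol-exposed and 18.7, 16.3 and 15.2 CPM in control mice. Every ethanol-exposed mouse lay below every control mouse, with a log2 fold change of -1.03 ± 0.13 (SE). This value sits close to the fold threshold, and it was -0.97 without ethanol replicate 3 and -0.95 without control replicate 1, short of it in both cases.

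The remaining pair of the block lay on the other side. Zfp810 had 27.4, 22.7 and 30.5 CPM in ethanol-exposed mice against 4.43, 3.90 and 5.09 CPM in control mice. The groups were far apart relative to their spread (26.9 ± 3.96 against 4.47 ± 0.596 CPM, SD, n = 3 each), and the log2 fold change of 2.59 ± 0.17 was the most positive of the family. Zfp599 was much less abundant, with 27, 23 and 39 counts in ethanol-exposed and 8, 10 and 13 counts in control mice. Its log2 fold change was 2.05 ± 0.54, and it fell short of the adjusted p in 4 of the 6 fits that left out a library, those without ethanol replicate 3 and without control replicate 1, 2 or 3 (1.76 to 2.25).

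Across the family, lower levels in ethanol-exposed mice outnumbered higher ones. Of the 185 members tested, 59 (31.9%) were downregulated DEGs and 17 (9.19%) were upregulated DEGs. Among all genes tested, 13.8% were downregulated and 10.4% upregulated. Among the 3523 other genes of similar abundance and length, with mean FPKM from 0.0933 to 1.85 and length from 2731 to 8420 bases (the range between the members' 10th and 90th percentiles), 23.0% were downregulated and 9.0% upregulated. Among the 183 tested Zfp-named genes without the KEGG term, 25.7% were downregulated and 4.92% upregulated. Since the list was taken up with these values known, no test of its share is given. The split moved with the scaling, to 6 upregulated and 105 downregulated members with library size alone, which also lowered the median of all genes. Shares of all genes in this and the following fits are not given here. These counts therefore do not set the members apart from other genes. Leaving out control replicate 2 lowered the downregulated members to 37, and leaving out ethanol replicate 3 raised them to 82. With limma on log2(FPKM + 1) most calls in both directions were lost. Among the 47 members with a mean of at least 1 FPKM, the main fit called 11 upregulated and 8 downregulated.

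Separation of the groups was common in this contrast, among members and other genes alike. All 3 ethanol-exposed mice lay below all 3 control mice in 92 members (49.7%) and above them in 24 (13.0%). Over all genes tested these shares were 31.0% and 28.0%, and over genes of similar abundance and length they were 40.3% and 17.1%, and over Zfp-named genes without the term 49.2% and 16.4%. By the adjusted p alone, 64 members (34.6%) were lower and 19 (10.3%) higher, beside 21.5% and 21.5% of all genes, 29.1% and 12.7% of similar genes and 36.6% and 13.1% of other Zfp-named genes. The 64 lower members became 42, 39 and 41 without control replicates 1, 2 and 3, and 98 without ethanol replicate 3. They became 118 with library size alone, and 109 and 120 with limma on log2(FPKM + 1) and log2(FPKM + 0.1). Over the 47 members with a mean of at least 1 FPKM they became 14. The shares of other genes given above belong to the main fit, and those in these alternatives are not given here. All 59 downregulated and all 17 upregulated members were among the separated genes.

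**Figure D1:**
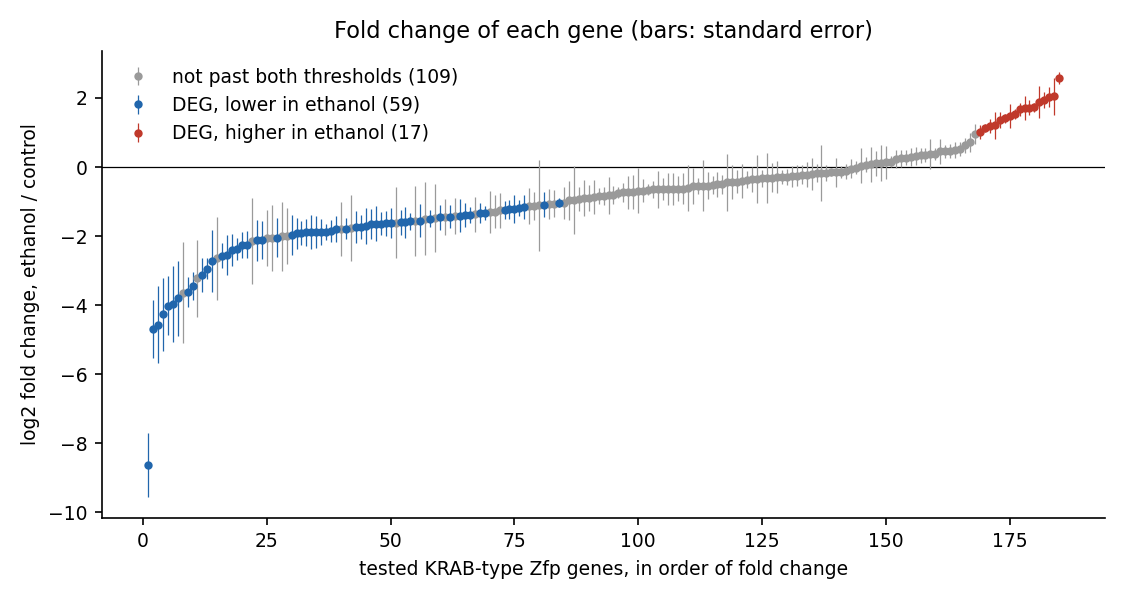
Log2 fold change (ethanol-exposed over control mice, vertical axis) of the 185 tested KRAB-type Zfp genes in ascending order, with bars of 1 standard error. The 59 downregulated genes are blue, the 17 upregulated genes red and the remaining genes grey, and 144 genes lie below 0. The lowest point is Zfp872, which had no count in ethanol-exposed mice, so its plotted value depends on the prior count of the fit.

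The median log2 fold change of the members was -0.83 (quartiles -1.64 and -0.16), with 144 members below 0 and 41 above. Placing Zfp872 at its bound leaves the median at -0.83. The members' median was -1.51 with library size alone, -0.36 with limma on log2(FPKM + 1) and -0.23 over the 47 members with a mean of at least 1 FPKM. Under the main TMM scaling it was -0.04 over all genes tested, -0.42 over genes of similar abundance and length, and -0.53 over Zfp-named genes without the term. Over the 118 tested members with the KRAB-ZNF / KAP annotation it was -0.89, with 40 (33.9%) downregulated and 9 (7.63%) upregulated. Over the 67 members without the annotation the median was -0.74, with 19 (28.4%) downregulated and 8 (11.9%) upregulated. Of the other genes that carry the KEGG term, 29 tested C2H2 factors with other symbols had a median of -0.65. Among them 6 (20.7%) were downregulated and 1 (3.45%) upregulated. The 162 tested genes with the term that are not C2H2 factors had a median of 0.11, with 25 (15.4%) downregulated and 19 (11.7%) upregulated. Of all genes tested 13.8% were downregulated and 10.4% upregulated, and of genes of similar abundance and length 23.0% and 9.0%.

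**Figure D2:**
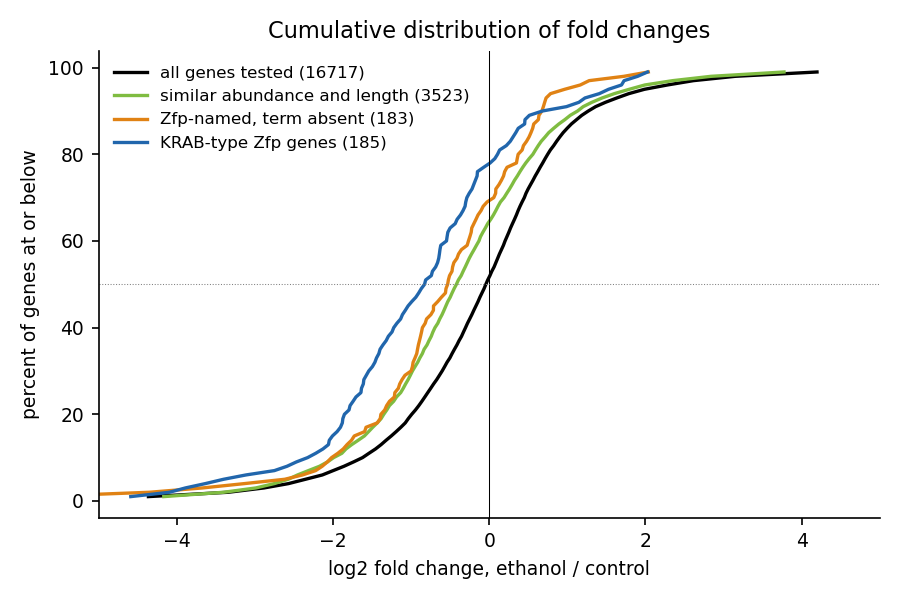
Cumulative percent of genes (vertical axis) at or below each log2 fold change (horizontal axis, ethanol-exposed over control mice) for the KRAB-type Zfp genes and 3 reference sets, drawn from the 1st to the 99th percentile. The curve of the KRAB-type Zfp genes crosses 50% at -0.83, the similar genes at -0.42, the other Zfp-named genes at -0.53 and all genes at -0.04.

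Lower mean levels went with lower fold changes within the family. This is in part by construction, because the mean FPKM included the ethanol-exposed mice. Members were low in liver, with a median of 0.514 FPKM against 1.49 FPKM over all genes tested. Among the 62 least abundant members (0.0106 to 0.308 FPKM) 21 were downregulated and 3 upregulated, with a median log2 fold change of -1.43. Among the 61 of middle abundance, 27 were downregulated and 2 upregulated (median -1.20). Among the 62 most abundant (0.766 to 10.9 FPKM) the numbers were nearly even, with 11 downregulated and 12 upregulated and a median of -0.17. Other genes in these abundance ranges had medians of -0.44, -0.33 and -0.02, and of these genes 15.4%, 22.1% and 12.7% were downregulated and 6.7%, 9.07% and 10.7% upregulated, against 33.9%, 44.3% and 17.7% and 4.84%, 3.28% and 19.4% of the members. Across the 185 members, fold change and mean FPKM had a Spearman correlation of 0.467, and fold change and length one of -0.118. These are correlations across genes of the same 6 libraries, and low genes also carry the larger errors. A gene lowered in ethanol-exposed mice has a lower mean FPKM for that reason alone. Zfp872, with 0 counts in every ethanol-exposed mouse, passed the filter on low counts through control mice alone. How much of the relation remains apart from this was not tested.

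The 8 most abundant members went in different directions, with 3 upregulated, 2 downregulated and 3 that were not DEGs. Zfp707 had the highest level at 10.9 FPKM, followed by Zfp623 (6.32 FPKM), Zfp825 (5.10 FPKM), Zfp809 (4.34 FPKM), Zfp768 (4.13 FPKM), Zfp871 (3.36 FPKM), Zfp777 (3.19 FPKM) and Zfp746 (3.02 FPKM). Zfp707 had 53.1, 51.4 and 31.5 CPM in ethanol-exposed and 40.7, 30.7 and 36.3 CPM in control mice, so the groups overlapped. Its log2 fold change of 0.34 ± 0.21 was -0.32 with library size alone, where the median of all genes moved to -0.71, and 0.21 to 0.55 with any 1 library left out. Zfp871 also overlapped between the groups, with 40.1, 37.2 and 31.9 against 43.2, 38.1 and 40.2 CPM and a log2 fold change of -0.16 ± 0.12, which became 0.03 when the trend with transcript length was removed.

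Zfp768 showed how a single mouse could carry the overlap. Its 6.03 and 4.89 CPM in ethanol replicates 1 and 2 lay below all control mice (11.9 to 13.1 CPM), and ethanol replicate 3 lay above them at 13.5 CPM. The log2 fold change was -0.63 ± 0.36, and without ethanol replicate 3 it was -1.20 and past both thresholds. In Zfp825, ethanol replicate 3 was again the highest of the ethanol-exposed mice at 6.14 CPM, against 1.43 and 1.36 CPM in ethanol replicates 1 and 2, but here it lay below all control mice (11.3 to 11.8 CPM). Zfp825 was downregulated with a log2 fold change of -1.97 ± 0.57, a call that was lost in the 5 fits without ethanol replicate 1, ethanol replicate 2 or any 1 of the control mice (-1.99 to -1.63). Of its transcript, 10.2% of the stretches of 100 bases also occur in other genes, so some of its reads may belong elsewhere.

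Several upregulated members were among the abundant ones. Zfp746 (PARIS), a parkin substrate known as a repressor of the coactivator gene Ppargc1a, had 50.0, 44.8 and 38.5 CPM in ethanol-exposed mice and 13.6, 14.0 and 12.6 CPM in control mice. All ethanol-exposed mice lay well above all control mice, and the log2 fold change was 1.73 ± 0.13. Zfp777, its neighbour on chromosome 6, had 17.6, 18.4 and 22.3 against 7.11, 7.69 and 7.07 CPM (log2 fold change 1.41 ± 0.14). Zfp623 on chromosome 15 had 34.6, 35.6 and 19.3 against 7.24, 8.07 and 8.08 CPM, and its log2 fold change was 1.94 ± 0.24. Again the groups did not overlap, although ethanol replicate 3 stood closer to the control mice.

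Zfp949 had 19.4, 13.9 and 21.4 CPM in ethanol-exposed and 5.81, 4.24 and 6.52 CPM in control mice (log2 fold change 1.72 ± 0.23). Zfp472 had 8.08, 7.93 and 4.20 against 1.72, 1.78 and 1.47 CPM (2.02 ± 0.29). Zfp113 had 10.7, 7.75 and 16.3 against 4.76, 2.41 and 3.46 CPM (1.71 ± 0.35). All 3 kept the groups apart and kept their calls with any 1 library left out. Zfp811 was scarce, with 36 to 63 counts in ethanol-exposed and 14 to 29 in control mice. Its log2 fold change was 1.88 ± 0.47, and its call was lost without ethanol replicate 1, control replicate 1 or control replicate 2 (1.70 to 1.80). The upregulated members had a median of 1.54 FPKM, and 11 of the 17 were at 1 FPKM or more. Only 8 of the 59 downregulated members were found there (median 0.390 FPKM). Mean FPKM included the ethanol-exposed mice, so it is not independent of direction.

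**Figure D3:**
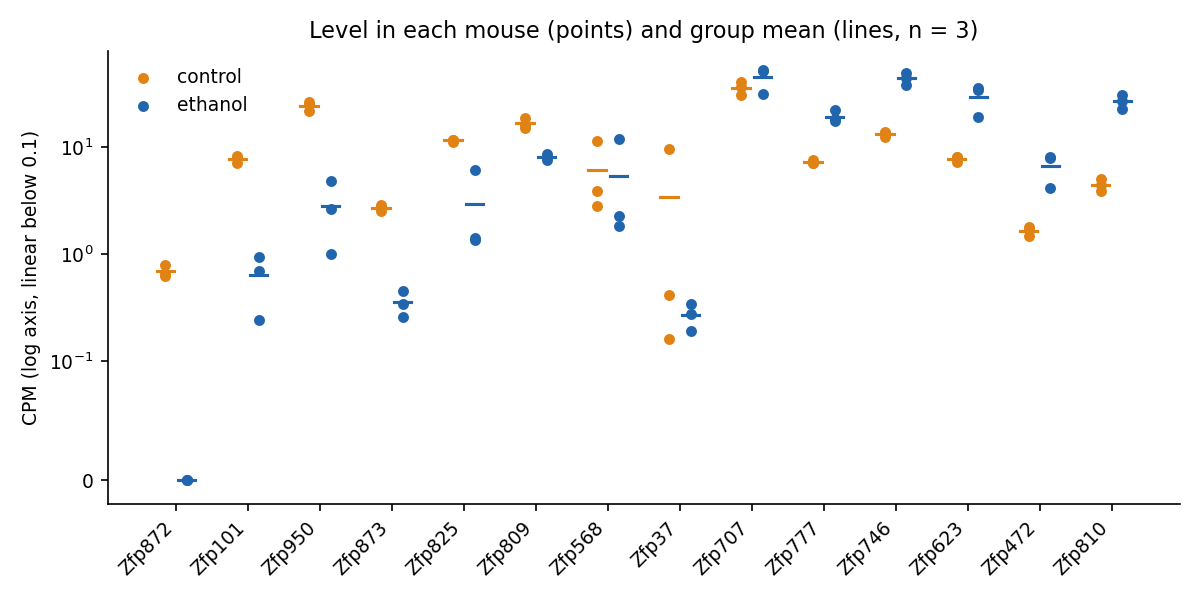
CPM (vertical axis, logarithmic and linear below 0.1) of 14 KRAB-type Zfp genes in each control (orange) and ethanol-exposed (blue) mouse, with lines at the mean of the 3 mice. From Zfp872 to Zfp809 every ethanol-exposed mouse lies below every control mouse, for Zfp568, Zfp37 and Zfp707 the groups overlap, and from Zfp777 to Zfp810 every ethanol-exposed mouse lies above.

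At the other end, several members were near or below detection in ethanol-exposed mice. Zfp101 was the most abundant of the 8 most strongly lowered, with 7.13, 8.32 and 7.91 CPM in control and 0.243, 0.703 and 0.953 CPM in ethanol-exposed mice. All ethanol-exposed mice lay far below all control mice, and the log2 fold change was -3.62 ± 0.45. Zfp109 had 120, 98 and 122 counts in control and 0, 4 and 10 counts in ethanol-exposed mice (log2 fold change -4.01 ± 0.85). For the other genes, with 2 to 4 counts summed over the ethanol-exposed mice, the ratio of summed levels is given with its 95% counting interval, which leaves out the spread between mice. Zfp600, Zfp808 and Zfp558 had 3 counts or fewer in every ethanol-exposed mouse and so were not detected there, and their ratios are uncertain to the width of these intervals. Zfp600 (121 counts in control, 3 in ethanol-exposed mice) was 27.7-fold lower (9.25 to 136), and Zfp808 (78 and 2 counts) was 26.8-fold lower (7.17 to 225). Zfp566 (119 and 4 counts) was 20.4-fold lower (7.77 to 76.2), Zfp879 (100 and 4 counts) 17.2-fold lower (6.50 to 64.2) and Zfp558 (66 and 3 counts) 15.1-fold lower (4.95 to 75.1).

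Zfp600 and Zfp109 kept their calls with any 1 library left out, and 4 others of these scarce genes did not. The calls of Zfp558 and Zfp879 were lost in 4 of the 6 fits that left out a library, in each case including all 3 fits without a control mouse (log2 fold changes of -3.94 to -3.65 and -4.09 to -3.83), and also without ethanol replicate 1 for Zfp558 (-3.27) and without ethanol replicate 2 for Zfp879 (-3.41). The call of Zfp566 was lost without control replicate 1, 2 or 3 (-4.35 to -4.15), and that of Zfp808 without control replicate 2 (-4.24) or control replicate 3 (-4.54). Zfp566 overlaps Gm26920 on the same strand, and 67.6% of the Zfp600 transcript is shared in stretches of 100 bases with other genes, chiefly Rex2. Their counts may be divided among these genes.

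Zfp950 on chromosome 19, singled out after its values were seen, was lowered at higher counts. It had 2.62, 1.01 and 4.86 CPM in ethanol-exposed and 26.3, 21.8 and 25.6 CPM in control mice, with a log2 fold change of -3.12 ± 0.50. It overlaps Grk5 on the opposite strand over 42129 bases, and Grk5 had 1379 to 1709 counts in control and 49 to 102 in ethanol-exposed mice, so the reads of this pair cannot be told apart. Of the 185 tested members, 42 overlapped another gene on either strand. The 143 that overlapped none had a median log2 fold change of -0.82, with 40 downregulated and 11 upregulated, beside 13.8% and 10.4% of all genes tested and 23.0% and 9.0% of similar genes. In the reference transcripts, 66 tested members shared any stretch of 100 bases with another gene and 25 shared over 10% of theirs.

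Among members known to silence transposable elements, Zfp932 was downregulated, as was Zfp809 above. Zfp932, which binds endogenous retroviruses together with its paralog Gm15446, had 1.41, 2.13 and 0.678 CPM in ethanol-exposed and 6.80, 6.67 and 6.57 CPM in control mice. The groups were well apart, with a log2 fold change of -2.25 ± 0.39, and 22.1% of its transcript is shared, chiefly with Gm15446. Zfp708, also a retrotransposon repressor, had 0 counts in all ethanol-exposed mice and 271, 54 and 4 counts in control mice, and it did not pass the filter on low counts. All of its transcript is shared in stretches of 100 bases with other genes, chiefly Gm28557. Zfp961 had 1.98, 2.11 and 3.54 CPM in ethanol-exposed and 6.61, 5.09 and 6.11 CPM in control mice and was downregulated (log2 fold change -1.22 ± 0.27).

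The imprinting factor Zfp57, which protects the methylated allele of imprinted loci, was scarce, with 0, 14 and 17 counts in ethanol-exposed and 52, 42 and 62 counts in control mice. Every ethanol-exposed mouse lay below the control mice, but the log2 fold change of -1.77 ± 0.96 had a large error and it was not a DEG. Zfp568, a repressor of placental Igf2 transcripts in the embryo, varied as much within groups as between them. It had 2.29, 12.0 and 1.83 CPM in ethanol-exposed and 11.5, 2.85 and 3.91 CPM in control mice. The log2 fold change was -0.18 ± 0.81 and turned positive without ethanol replicate 1 (0.20), ethanol replicate 3 (0.25) or control replicate 1 (0.67).

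Spread within a group was screened where the highest count was at least 100 and no mouse was at 0, and there Zfp37 in control mice had the widest range, with Zfp708 close to it (59.4-fold). Zfp37 had 15, 735 and 34 counts in control replicates 1, 2 and 3 and 11 to 21 counts in ethanol-exposed mice, a 60.4-fold range in CPM among control mice. The log2 fold change of -3.64 ± 1.47 was -0.08 without control replicate 2, so it rested on that mouse, and it was -4.21 and past both thresholds without control replicate 1. Zfp90, a partner of the repressor REST, had 0.991, 0.916 and 1.26 against 1.49, 1.38 and 1.62 CPM (-0.50 ± 0.27). Zfp30 had 0.626, 0.376 and 1.54 against 2.94, 1.93 and 2.06 CPM (-1.45 ± 0.52). Neither was a DEG, although the groups did not overlap in either gene, and Zfp30 passed both thresholds without ethanol replicate 3 (-2.19).

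The mice differed in how far the family moved. Relative to the mean of control mice, the median log2 CPM difference of the members was -1.05 in ethanol replicate 1, -1.27 in ethanol replicate 2 and -0.42 in ethanol replicate 3, and between -0.02 and 0.05 in control mice. The same medians over all genes tested lay between -0.05 and -0.03 in ethanol-exposed mice. Members below their control mean numbered 144, 153 and 117 of 185 in ethanol replicates 1, 2 and 3. Ethanol replicate 3 was the highest of the ethanol-exposed mice in 39 of the 59 downregulated members (66.1%), against 39.7% of all downregulated genes. The median SD of log2 CPM of the members was 0.600 among ethanol-exposed and 0.213 among control mice, beside 0.458 and 0.228 in genes of similar abundance and length.

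**Figure D4:**
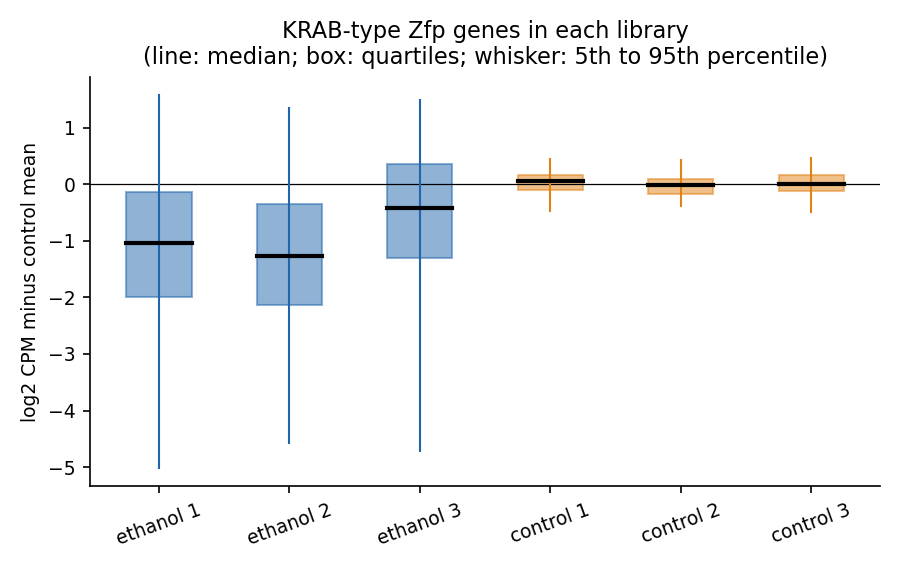
Log2 CPM of the 185 tested KRAB-type Zfp genes in each library minus each gene's mean in control mice (vertical axis), with the median as a line, quartiles as a box and the 5th to 95th percentile as a whisker. Medians lie at -1.05, -1.27 and -0.42 in the 3 ethanol-exposed mice (blue) and near 0 in control mice (orange).

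Other properties of the libraries moved with the groups and with ethanol replicate 3. Totals were 60514417 to 74210869 counts per library, and TMM factors were 0.768 to 0.836 in ethanol-exposed and 1.26 to 1.27 in control mice. Members together took 36821 to 40817 counts per library in ethanol-exposed and 54088 to 71848 in control mice, and 22 to 24 members had 3 counts or fewer per library in ethanol-exposed against 6 to 8 in control mice. Marker lists of liver cell types are given as summed FPKM, which the TMM factors do not scale, and as the median fitted log2 fold change, which they do. The 8 hepatocyte markers summed to 55013 to 55878 in ethanol-exposed and 46474 to 53407 in control mice, with a median of 0.88 and 3 upregulated. The 8 Kupffer cell markers summed to 37.0 to 47.4 against 69.6 to 76.1, with a median of -0.32 and no DEG. The 7 endothelial markers summed to 16.2 to 31.1 against 26.1 to 31.4 (median -0.24, 2 upregulated and 2 downregulated), the 6 stellate cell markers to 22.5 to 26.8 against 28.7 to 31.0 (median 0.14, no DEG) and the 5 cholangiocyte markers to 16.3 to 24.9 against 20.1 to 49.0 (median -0.20, 1 upregulated). For stellate cells the sums and the fitted median thus differed in direction. The 5 B cell markers summed to 1.05 to 1.80 against 2.78 to 3.89 (median -0.66, 1 downregulated), and the 5 T cell markers to 0 to 0.140 against 0.380 to 0.747 (2 tested, no DEG). The 5 neutrophil markers summed to 2.37, 4.0 and 14.1 in ethanol replicates 1, 2 and 3 against 0.737 to 0.971 in control mice (median 4.03, 3 of 4 tested upregulated). In bulk liver RNA, fewer cells of a type and less RNA per cell cannot be told apart, and the part of these differences in the members' values was not tested.

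Chromosomal position was compared next, since neighbouring members are usually close paralogs. Members were most frequent on chromosome 7 (57), chromosome 17 (31) and chromosome 13 (24). Grouping members with starts less than 500 kb apart gave 15 clusters with at least 4 tested members, which held 117 members (110 tested). The median log2 fold change was below 0 in 12 of the 15 clusters. Inside clusters 34 members were downregulated and 10 upregulated (median -0.82), and outside them 25 and 7 of 75 (median -0.85), beside 13.8% and 10.4% of all genes tested and 23.0% and 9.0% of genes of similar abundance and length.

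Among clusters, 8 held downregulated DEGs alone, 1 held upregulated DEGs alone, 4 held both and 2 held none. The largest share of downregulated members was in a block of 366 kb on chromosome 7, where 7 of 11 tested members were downregulated, beside 13.8% of all genes tested (Zfp940, Zfp420, Zfp27, Zfp383, Zfp74, Zfp14 and Zfp566) and the median log2 fold change was -1.44. Another block on chromosome 7, from Zfp180 to Zfp94, held 5 downregulated members of 9 (median -1.64), among them Zfp109. On chromosome 11, a block with the Zfp354 genes held 3 downregulated members of 5. These blocks are small and had high shares among the clusters. Beside them, 31.9% of all tested members and 23.0% of genes of similar abundance and length were downregulated. In the chromosome 11 block Zfp354a, first described in the kidney, had 0.869, 0.883 and 1.96 CPM in ethanol-exposed mice. It had 3.73, 3.48 and 4.31 CPM in control mice (log2 fold change -1.63 ± 0.37). Of its paralogs, Zfp354b was at -1.41 ± 0.53 and not a DEG, although all ethanol-exposed mice lay below all control mice, and Zfp354c was at 0.11 ± 0.52 with overlapping groups. Differences between the paralogs were not tested. The Zfp354c value turned to -0.22 without control replicate 1, and it was -0.56 with library size alone, where the median of all genes was -0.71.

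Upregulated members also had upregulated neighbours in places. On chromosome 6, Zfp956 (1.02 ± 0.20), Zfp777 and Zfp746 stood next to each other at one end of a cluster of 7 members, and the remaining 4 members held no DEG. On chromosome 17, Zfp811 and Zfp472 lay in a cluster of 10 with the downregulated Zfp563, Zfp81 and Zfp101. Another cluster of 13 on that chromosome held the upregulated Zfp52 (1.21 ± 0.39) and Zfp948 (1.19 ± 0.20) and the downregulated Zfp760 and Zfp229. The call of Zfp52 was lost in 5 of the 6 fits that left out a library, all but the one without ethanol replicate 1 (0.85 to 1.31). On chromosome 8, Zfp869 was upregulated (31.2 ± 1.93 against 14.2 ± 1.36 CPM, SD, n = 3 each) and Zfp866 was downregulated (1.35 ± 0.68 against 7.97 ± 0.596 CPM), with Zfp963, which was not a DEG, between them.

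**Figure D5:**
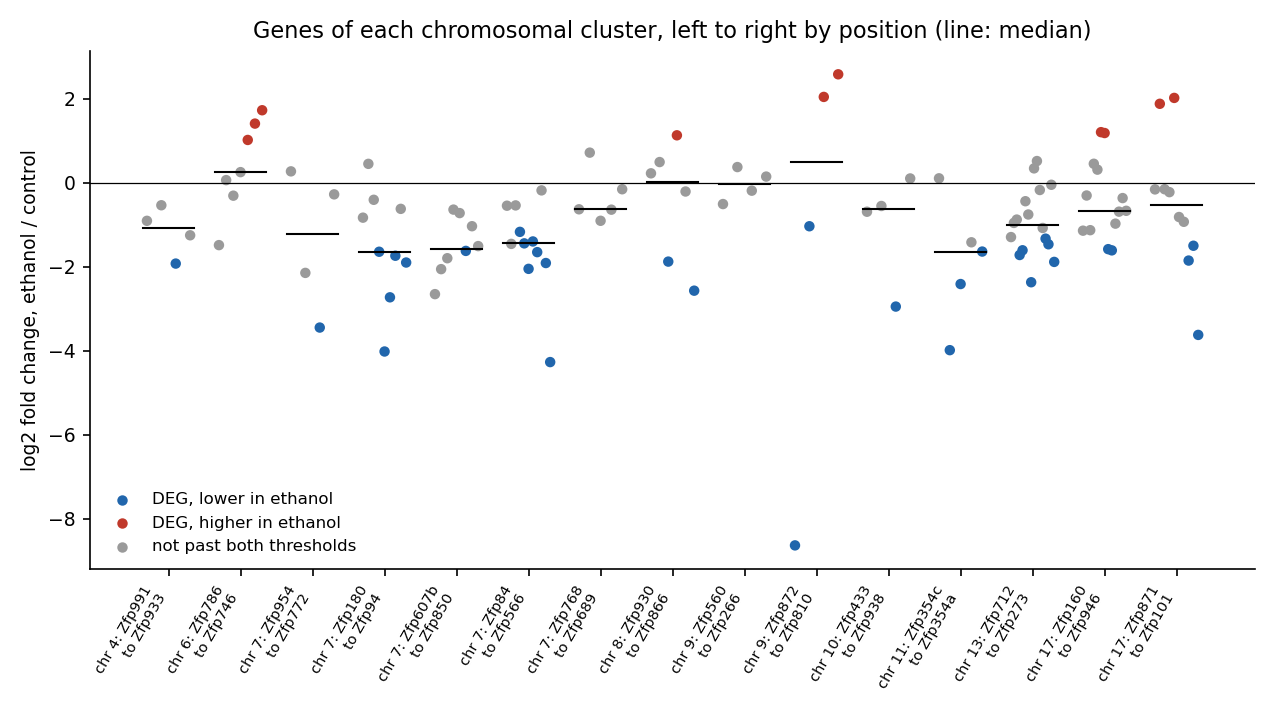
Log2 fold change (vertical axis, ethanol-exposed over control mice) of the tested genes in each of 15 chromosomal clusters, ordered within a cluster by position, with a line at the cluster median. Downregulated DEGs are blue, upregulated DEGs red and other genes grey, and the chromosome 9 block from Zfp872 to Zfp810 has 2 blue and 2 red points, with Zfp872 at a fitted value that depends on the prior count.

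Promoters of the members differed from those of all genes in composition. In the RefSeq table, 175 of the 200 members had a promoter sequence. Their median ratio of observed to expected CpG was 0.572, against 0.388 over 27018 promoters of all genes, with a median of 11 CpG in the 300 bases against 7. The TATA box (TATAAA) was found in 5.71% of the members and 14.2% of all promoters, and the CCAAT box in 51.4% and 37.9%. For the GC box the shares were 38.3% and 35.9%, for the E-box (CACGTG) 6.86% and 7.24%, for the cyclic AMP response element (TGACGTCA) 4.57% and 1.88%, and for the YY1-type motif 5.14% and 2.65%. The YY1-type motif was present in 5 of the 55 downregulated members with a promoter (9.09%) and in none of the 13 upregulated ones, the CCAAT box in 56.4% and 46.2%, the GC box in 30.9% and 38.5% and the TATA box in 5.45% and 7.69%. With 13 upregulated promoters these shares are imprecise and were not tested. All motifs were searched on both strands, and a match describes letters in the window rather than binding.

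The corepressor genes through which KRAB proteins act were looked at as a separate list of 27, which was not chosen by the KEGG term. All 27 were tested, 5 (18.5%) were downregulated and 3 (11.1%) upregulated, beside 13.8% and 10.4% of all genes. The median log2 fold change was -0.27. Trim28, the common corepressor, had 25.4, 30.6 and 34.5 CPM in ethanol-exposed and 40.9, 48.3 and 40.7 CPM in control mice. It was lower in all ethanol-exposed mice by a log2 fold change of -0.52 ± 0.14 (adjusted p = 0.0235, edgeR), less than the fold threshold. Setdb1 had 14.0, 12.3 and 15.6 against 23.4, 19.9 and 18.7 CPM, a log2 fold change of -0.57 ± 0.14 (adjusted p = 0.0166, edgeR). Its cofactor Atf7ip was at -0.70 ± 0.30 and did not pass the test (adjusted p = 0.0977, edgeR), with ethanol replicate 3 inside the range of control mice. It passed both thresholds without ethanol replicate 3 (-1.13).

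The 3 HP1 genes did not share a direction. Cbx1 had 5.58, 5.49 and 7.71 CPM in ethanol-exposed and 16.7, 12.3 and 14.0 CPM in control mice (log2 fold change -1.20 ± 0.20, adjusted p = 0.0031, edgeR). Cbx5 had 5.94, 5.82 and 15.03 against 22.4, 19.4 and 20.5 CPM (-1.22 ± 0.37, adjusted p = 0.0327, edgeR), and its call was lost in all fits that left out a library other than ethanol replicate 3 (-1.27 to -0.99). Cbx3 was higher by 0.39 ± 0.12 (adjusted p = 0.033, edgeR), and by 0.33 to 0.47 with any 1 library left out. With library size alone it was -0.28, above the median of -0.71 that all genes had under that scaling.

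Genes of the HUSH silencing complex and related factors were on the same list. Tasor, the scaffold of HUSH, had 2.03, 3.03 and 6.69 CPM in ethanol-exposed and 20.3, 16.8 and 23.3 CPM in control mice (log2 fold change -2.36 ± 0.42, adjusted p = 0.00431, edgeR). Its partner Mphosph8 was lower by a smaller value (-0.53 ± 0.17, adjusted p = 0.0401, edgeR), and Pphln1 did not pass the test (-0.17 ± 0.12, adjusted p = 0.278, edgeR). Morc2a went the other way and was higher by 0.83 ± 0.11 (adjusted p = 0.00154, edgeR), less than the fold threshold. In Morc2a every ethanol-exposed mouse lay above every control mouse. The differences between these genes were not tested. Resf1, which cooperates with Setdb1 in silencing retroviruses, was higher with 44.0, 67.8 and 23.7 against 12.8, 12.4 and 13.2 CPM (1.82 ± 0.34, adjusted p = 0.00541, edgeR). Trim24, a relative of Trim28, had 39.6, 41.2 and 33.1 against 9.42, 9.46 and 9.41 CPM, and its log2 fold change of 2.01 ± 0.12 had an adjusted p of 8.86e-05 (edgeR). The remaining DEGs of the list were Morc3 (1.06 ± 0.28), Smarcad1 (-1.01 ± 0.29) and Suv39h2 (-1.29 ± 0.42). All 3 calls were lost in the 5 fits without ethanol replicate 1, ethanol replicate 2 or any 1 of the control mice, with values of 0.87 to 1.14, -1.12 to -0.79 and -1.35 to -1.02.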

How the data were processed

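For 6 mouse liver libraries the authors deposited 1 table with whole-number read counts and FPKM values per Ensembl gene. The authors trimmed the reads and aligned them by standard pipelines, while the aligner, counter and strand setting are not given in the sources used here. The labels name GRCm38/mm10, but of 27049 genes matched to GENCODE M21 only 569 share a start, so gene coordinates are those of the table and its build is taken as unknown. A column of counts matching no sample (1) was not used, nor were the paper's other data.

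Counts were compared by edgeR 4.0.16 (quasi-likelihood test, TMM, filterByExpr, no covariates, all 6 libraries) in R 4.3.3, with Benjamini-Hochberg adjustment. Counts of 3 or fewer were read as not detected, and intervals and floors cover counting error only. Members, lists and the naming rule were chosen with earlier results of these data known. Named members are the 8 most abundant, the 8 most lowered and 8 most raised separated DEGs, genes with known roles and cluster extremes, and not all are reported. The zinc-finger split of the other genes with the KEGG term used the table's factor family column, chosen after seeing the file. Shared stretches came from GENCODE M21 transcripts and promoters from RefSeq GRCm38.p6. Alternatives used DESeq2 1.42.0 and limma 3.58.1. Protein sequences were not used here. The scripts were tested on simulated data.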

Additional observations from a re-analysis of the deposited data

How the results depend on the processing

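The members' median log2 fold change stayed below 0 in every alternative run, from -1.51 to -0.23. With library size alone, which moved the median of all genes to -0.71, 6 members were upregulated and 105 downregulated, 11 and 118 at the adjusted p alone, and the median was -1.51. limma on log2(FPKM + 1) gave 2 and 9, 11 and 109, and -0.36, and limma on log2(FPKM + 0.1) gave 5 and 92, 12 and 120. The 47 members with a mean FPKM of at least 1 gave 10 and 8, 11 and 14, and -0.23. Median ratio scaling, upper quartile scaling, removal of the length trend, DESeq2 and no filter kept these values within 1.5 times. Leaving out 1 library gave 12 to 16 upregulated members, 37 (without control replicate 2) to 82 (without ethanol replicate 3) downregulated, 13 to 19 higher and 39 to 98 lower at the adjusted p alone (64 with all libraries; 42, 39 and 41 without control replicates 1, 2 and 3), and medians of -1.17 to -0.68. Shares of all genes called in these alternatives are not given here. Of 30 named members that were DEGs, 20 kept the call in each fit that left out 1 library and none reversed in any alternative. Library size alone and the FPKM fits lack the TMM factors, and the median of all genes there was -0.71, and -0.30 and -0.62 at a pseudocount of 1 and 0.1. The directions that reversed were Zfp707 (-0.32 with library size alone, -0.33 and -0.36 with limma at a pseudocount of 1 and 0.1), Cbx3 (-0.28, -0.21 and -0.28), Zfp354c (-0.56 with library size alone, -0.22 without control replicate 1, range without 1 library -0.22 to 0.55), and, with the length trend removed, Zfp871 (0.026) and Zfp568 (0.015), the latter also without ethanol replicate 1 (0.20), ethanol replicate 3 (0.25) or control replicate 1 (0.67), against a lowest value of -1.55. The causes were not tested. Same-numbered mice did not deviate together (r = -0.03, -0.02 and -0.02), and a replicate block gave 16 upregulated and 52 downregulated members with a median of -0.90.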

Other observations

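KRAB or SCAN zinc-finger genes with other symbols were a separate list. Of 23 tested, 5 (21.7%) were downregulated and 2 (8.7%) upregulated, beside 13.8% and 10.4% of all genes tested. At the adjusted p alone 5 were lower and 5 higher (21.7% each), beside 21.5% of all genes in each direction. The median log2 fold change was -0.32. Zkscan3, a repressor of autophagy genes, had 32.5 ± 2.88 CPM in ethanol-exposed and 67.8 ± 3.48 CPM in control mice (SD, n = 3 each, log2 fold change -1.06 ± 0.11, adjusted p = 0.000528, edgeR). Zscan25 (1.57 ± 0.18, adjusted p = 0.000887, edgeR) and Zkscan5 (1.38 ± 0.23, adjusted p = 0.00354, edgeR) were upregulated. Rslcan18, named as a candidate regulator of sex limitation, was downregulated (adjusted p = 0.00747, edgeR). It had 1, 1 and 8 counts in ethanol-exposed and 163, 87 and 48 counts in control mice. In 2 of the 3 ethanol-exposed mice it was under the 3-count limit of detection. Rsl1 of the same list was not a DEG (-1.17 ± 0.54, adjusted p = 0.122, edgeR).

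Imprinted genes, among them targets of Zfp57, were a further list. Of 21 tested, 1 (4.76%) was upregulated and none was downregulated by edgeR, beside 10.4% and 13.8% of all genes tested, while 3 were lower at an unadjusted p under 0.05, 2 were downregulated by DESeq2 and 0 by limma on log2(FPKM + 1), and the median log2 fold change was -0.12. At the adjusted p alone, 4 were higher, beside 21.5% of all genes in each direction, and 1, Inpp5f, was lower (-0.66 ± 0.16, adjusted p = 0.0134, edgeR). The upregulated gene was Grb10, an inhibitor of insulin signalling, with 19.03, 27.5 and 4.97 CPM in ethanol-exposed and 2.31, 3.15 and 2.77 CPM in control mice (2.65 ± 0.56, adjusted p = 0.00868, edgeR). Ethanol replicate 3 was again the mouse closest to the control mice.

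Of 7 nuclear RNAs tested, 1 was upregulated and 1 downregulated (14.3% each, beside 10.4% and 13.8% of all genes tested). Malat1 was higher by 1.27 ± 0.34 on the log2 scale (adjusted p = 0.0213, edgeR), with ethanol replicate 3 at 79.9 CPM near the control mice (66.6 to 70.5 CPM), and Neat1 was at -2.26 ± 0.16 (adjusted p = 0.000159, edgeR).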
